A study of Mus musculus with 2 samples.

Results

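The cells described here are the endothelial cells of mouse embryos at embryonic day 9.5, the cells that line the blood vessels and, as endocardium, the inside of the heart. They came from droplet-based single-cell RNA sequencing of whole dissociated embryos, with 1 library of wild-type (Usb1+/+) embryos and 1 library of Usb1-null (Usb1-/-) embryos. The null allele is a germline deletion made with CRISPR/Cas9, so every cell type of the embryo and of its extra-embryonic tissues carries it, and a difference in endothelial cells cannot be told apart from an effect of other tissues on them. How many embryos were dissociated for a library is not stated in the sources used here. USB1 is the nuclease that shortens the uridine tail of U6 small nuclear RNA.

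A cell was counted as endothelial when at least 3 of 12 marker genes had at least 1 unique molecular identifier (UMI, a tag that stands for 1 captured transcript). The 12 genes were Emcn, Flt1, Ptprb, Kdr, Cldn5, Cdh5, Tek, Egfl7, Adgrf5, Pecam1, Stab1 and Tie1. Cells with 4 or more of the cardiac muscle genes Ttn, Myh6, Ryr2, Tnnt2, Tnnc1 and Ldb3 were dropped, which removed 6 wild-type and 15 Usb1-null cells. Of 28179 cells with 200 to 6000 detected genes, 1705 met the rule, 883 of 15161 with the wild-type genotype and 822 of 13018 with the Usb1-null genotype. These cells held 1496028 and 2495283 UMIs, with a median of 1416 and 2562.5 UMIs per cell. The Usb1-null library was the deeper one in all other cells too, with medians of 1234 and 2276.5 UMIs. Barcodes present in both libraries numbered 61, and 1 of them was an endothelial cell in both. With 1 library per genotype no difference has a replicate check and no test was made. Intervals are 95% intervals that cover counting error only, since reads of 1 library are not independent embryos.

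Endothelial cells differentiate under vascular endothelial growth factor (VEGF), which acts on the receptors KDR and FLT1. They form sprouts led by tip cells and take on an arterial, venous or endocardial identity, with Notch signalling favouring the arterial fate. Transcription factors of the ETS family, among them FLI1, ERG, ETS1 and ETV2, bind sites with a GGAA core and are known regulators of most endothelial genes.

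The sequences upstream of the 3 rule markers with the most UMIs that have an entry in the RefSeq table are shown. They were not chosen by motif, and all 3 hold the letters AGGAAG, a common form of the ETS core. Each is the 250 bases before an annotated start in GRCm38.p6, written 5′ to 3′ on the strand of the gene, with AGGAAG or its reverse complement CTTCCT in capitals. Flt1, a VEGF receptor, lies on the minus strand (chr5:147726012-147726261) and holds 2 copies. Egfl7, a protein secreted by endothelial cells, lies on the plus strand, and the most upstream of its 3 starts is shown (chr2:26580833-26581082, 3 copies). Emcn, the sialomucin endomucin, lies on the plus strand (chr3:137340828-137341077, 2 copies).
Flt1: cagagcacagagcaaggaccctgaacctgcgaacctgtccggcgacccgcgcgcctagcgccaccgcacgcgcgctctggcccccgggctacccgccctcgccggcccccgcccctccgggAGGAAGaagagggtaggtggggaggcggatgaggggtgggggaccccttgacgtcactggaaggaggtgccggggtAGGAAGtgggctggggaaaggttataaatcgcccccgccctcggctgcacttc
Egfl7: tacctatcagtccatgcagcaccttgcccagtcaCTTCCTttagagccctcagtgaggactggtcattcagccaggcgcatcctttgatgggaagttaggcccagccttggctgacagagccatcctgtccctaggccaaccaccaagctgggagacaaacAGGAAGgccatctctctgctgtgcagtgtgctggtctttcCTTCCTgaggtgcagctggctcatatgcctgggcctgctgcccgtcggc
Emcn: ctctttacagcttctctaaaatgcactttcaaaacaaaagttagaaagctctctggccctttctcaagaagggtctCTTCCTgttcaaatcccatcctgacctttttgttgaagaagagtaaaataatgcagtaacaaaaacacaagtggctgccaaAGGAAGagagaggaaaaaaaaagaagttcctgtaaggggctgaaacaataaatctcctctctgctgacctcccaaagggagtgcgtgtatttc
On either strand, the letters stood within 250 bases of a start for 6 of the 9 rule markers with an entry (Flt1, Egfl7, Emcn, Tie1, Stab1 and Adgrf5), and for 8 of the 13 matched among the 15 most enriched genes that the rule did not use. Among all 27025 genes of the table the share was 32.3%, and among all 32851 promoters 29.5%. A match is only a match of letters, and the windows for Tek, Kdr and Cldn5 did not hold them.

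The cells had the expression of endothelium in genes that the rule had not used. Of 35 further endothelial genes, 30 had at least 100 UMIs over both libraries, and 27 of these were at least 4-fold higher than in all other cells of the same library in both libraries (with 5 CPM added). The share of all 7196 genes outside the rule lists that passed this mark was 3.09%. Since the cells were chosen by markers of the same transcriptome, this describes the choice and is no test of it. The most enriched were Eng, the endothelial receptor endoglin, Cd34, a surface sialomucin, the uncharacterised transcript 4930542D17Rik, the calcium channel gene Trpc6 and the adhesion receptor gene Adgrl4. Eng had levels of 411 CPM (UMIs scaled to a library total of 1000000) and 315 CPM in the endothelial cells of the wild-type and Usb1-null library, against 6.62 and 6.05 CPM in other cells. Adgrl4 had 210 and 179 CPM, and was 106-fold and 65.1-fold above other cells. The list was completed by Cyyr1, Lcp1, Thsd1, Csgalnact1, Prkch, Dysf, Rapgef4, Plxnd1, Col15a1 and Rasgrp3. The ETS factor gene Fli1 had 1256 and 1132 CPM, and Erg had 197 and 161 CPM. Etv2, which acts at the onset of the lineage, had 23 and 50 UMIs, and Sox18 had 5 and 29.

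Markers of mesenchyme, neural tissue and heart muscle were lower than in other cells. The 12 mesenchyme markers summed to 185 and 195 CPM, against 553 and 518 CPM in other cells, and the 8 neural markers to 120 and 104 CPM against 325 and 258. The 8 heart muscle markers that the rule did not use summed to 120 and 61.3 CPM, against 356 and 182 CPM. Leukocyte markers summed to 52.1 and 70.5 CPM, above the 20.9 and 32.8 CPM of other cells, although with Tyrobp, Lyz2 and C1qa at 0 UMIs in both libraries, which bounds each at 3 counts per library. Megakaryocyte markers summed to 50.1 and 37.3 CPM, also above other cells (21.2 and 13.9 CPM). Erythroid genes were not lower either, with sums of 1186 and 264 CPM in the endothelial cells against 871 and 225 CPM in other cells. Scrublet called 163 wild-type (18.5%) and 111 Usb1-null endothelial cells (13.5%) as doublets, compared with 6.76% and 4.30% of all cells kept.

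The share of endothelial cells was 5.82% (5.46 to 6.21) among wild-type and 6.31% (5.90 to 6.75) among Usb1-null embryo cells, a ratio of 1.08 (0.989 to 1.19). The rule counts detected genes, and endothelial cells had a median of 6 of its 12 markers detected in wild-type embryos and 8 in Usb1-null ones. Next to the threshold, there were 82 wild-type and 71 Usb1-null cells with exactly 3 markers and 111 and 31 with 4, while 177 and 349 cells with 2 markers stayed outside. With every cell thinned to 500 UMIs before the rule was applied, the shares were 3.85% and 3.64%, a ratio of 0.945 (0.839 to 1.06). The ratio was thus above 1 on all UMIs and below 1 with 500 UMIs per cell, and the interval included 1 in these 2 settings. Without doublets the ratio was 1.12 (1.01 to 1.24).

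**Figure D1:**
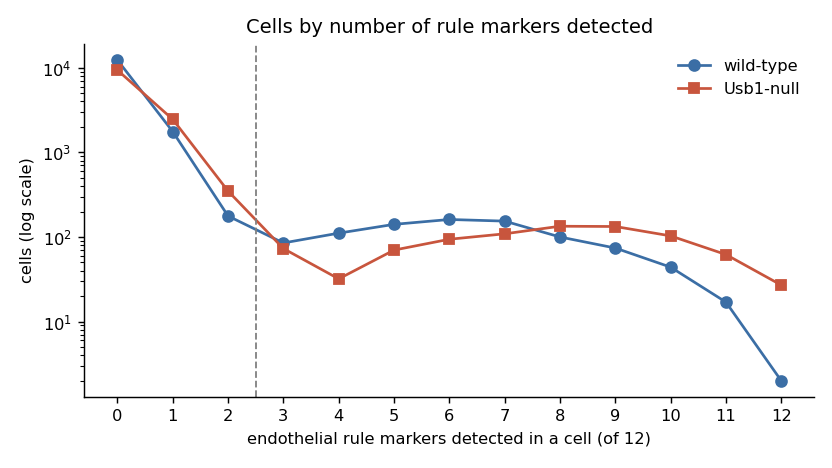
Number of cells (log scale) against the number of the 12 rule markers detected in a cell, for the wild-type (circles) and Usb1-null (squares) library, with a dashed line at the threshold of 3. Both libraries have a trough at 3 or 4 markers and a second peak, at 6 markers in wild-type cells (161 cells) and at 8 in Usb1-null cells (134 cells).

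The endothelial cells were next divided by their expression, with each gene centred per library. Of 11 sub-clusters, 4 were called by an endothelial subtype from their markers, 3 had markers of another cell class raised and 4 stayed without a name. The genes that define a sub-cluster are descriptions and were not tested.

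The arterial-like cells (119 wild-type and 98 Usb1-null) had 11 of 17 arterial markers raised at least 2-fold over the other endothelial cells. Gja5 and Gja4, which encode the gap junction proteins connexin 40 and connexin 37, were among their leading genes. Gja5 had 349 CPM in these cells against 8.97 CPM in the other endothelial cells. The same sub-cluster was led by Runx1, the transcription factor that drives the formation of blood stem cells from arterial endothelium, with 379 against 9.81 CPM. Of its 196 UMIs in all endothelial cells, 68 of 86 in the wild-type and 93 of 110 in the Usb1-null library lay in arterial-like cells. Of the haemogenic list, 4 of 12 genes were raised there (Runx1, Itga2b, Adgrg1 and Cd44). Of the megakaryocyte list, 3 of 9 genes were raised in the same cells (Pf4, Itga2b and Itgb3), and the list summed to 232 and 178 CPM there against 0 to 71.6 CPM in the other sub-clusters. The part of megakaryocyte RNA in this sub-cluster was not tested. Ptprc, the pan-leukocyte antigen, had 1 UMI per library in all endothelial cells.

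The endocardial-like cells (66 and 69) had 10 of 12 endocardial markers raised, led by Tbx20, Gata4 and Adgrg6, and 6 of 11 genes of the cardiac cushions, among them Vcan, Has2 and Tgfb2. Tbx20, a cardiac T-box factor, had 914 against 24.5 CPM and Gata4, a cardiac zinc finger factor, 756 against 43.6 CPM. The venous-like cells (125 and 100) had 4 of 8 venous markers raised, Aplnr, Dab2, Stab2 and Lyve1, with the scavenger receptor gene Stab2 leading at 181 against 22.1 CPM. Nr2f2, Ephb4, Nrp2 and Flt4 were not raised there, and Nrp2 was raised in the unnamed sub-clusters 6 and 8. The venous list summed to 2808 and 2537 CPM in venous-like cells. In the unnamed sub-clusters 6, 7 and 8 it summed to 2560 and 2321, 2564 and 1542, and 2580 and 2049 CPM, so venous genes were not particular to the venous-like cells. Tip cell-like cells were the largest group (175 and 173), with 9 of 12 tip cell genes raised, including Apln, Esm1, Pdgfb, Kcne3 and Mcam. None of these 9 was among its 10 leading genes, which included Robo4 and Rapgef4, and no cell of this group was called a doublet.

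Sub-clusters 3, 5 and 10 had markers of other cell classes raised, and 79.2%, 67.4% and 58.3% of their cells were called doublets. Sub-cluster 3, called neural marker, had 4 of 8 neural markers raised (Sox2, Pax6, Hes5 and Elavl3), none of them among its 10 leading genes. Sub-cluster 5, called mesenchyme marker, had 10 of 12 mesenchyme markers raised, with Col1a1 alone among its leading genes, and also 4 of 6 ectoderm, 4 of 9 yolk sac endoderm, 3 of 5 neural crest and 3 of 14 heart muscle markers. Sub-cluster 10, called erythroid marker, had 8 of 11 erythroid genes raised and was led by globins. Sub-cluster 6 was led by Mmrn1 and Nox4, and sub-cluster 7 by genes of ribosomal proteins such as Rpl7 and Rpl11, with median UMI counts of 819.5 and 1484.5, the lowest of the 11. Sub-cluster 9 was led by the imprinted transcripts Rian and Meg3. Leading genes of sub-cluster 8 included Btbd11 and Ebf1, with the blood and endothelial factors Tal1 and Lmo2 also among its leading genes.

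**Figure D2:**
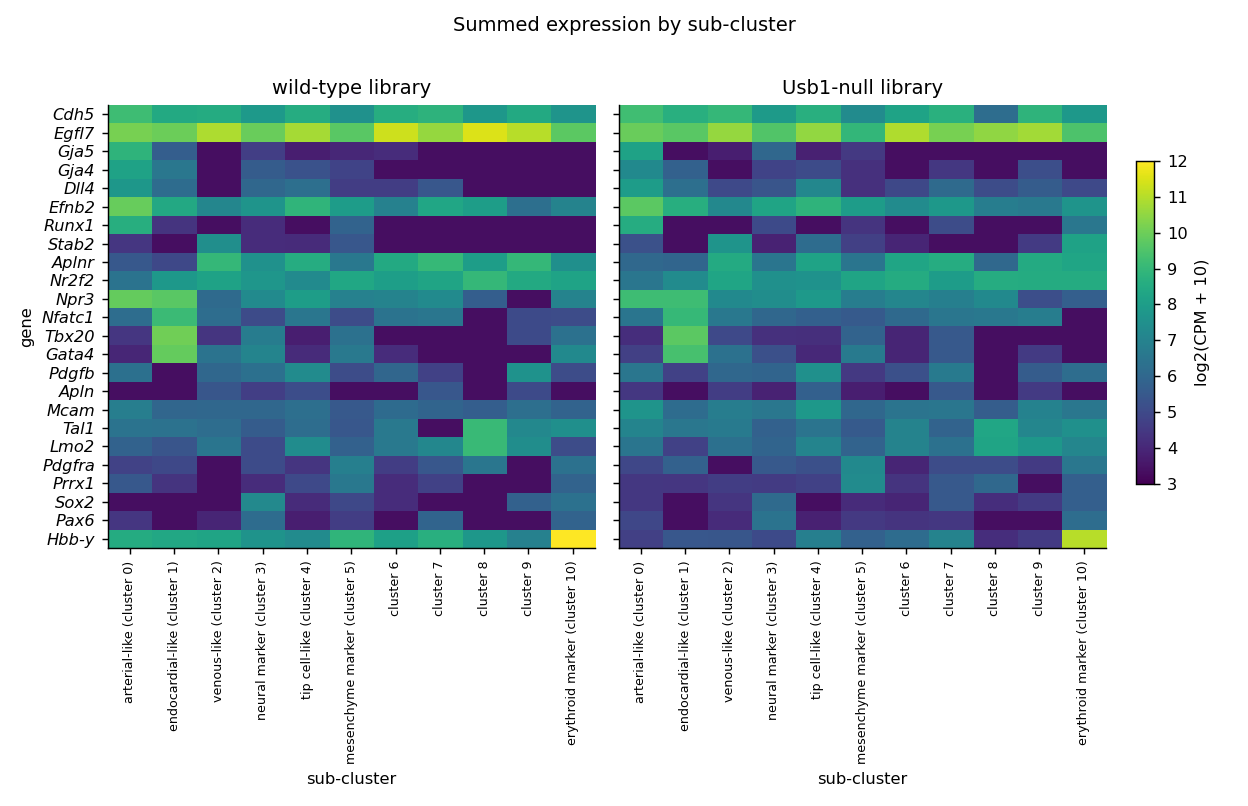
Summed expression, as log2(CPM + 10), of 24 genes (rows) in the 11 sub-clusters (columns), for the wild-type library on the left and the Usb1-null library on the right. Gja5, Gja4 and Runx1 are brightest in arterial-like cells, Tbx20 and Gata4 in endocardial-like cells and Hbb-y in sub-cluster 10 in both libraries, while Cdh5 and Egfl7 are present throughout.

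Arterial-like cells were 13.5% (11.3 to 15.9) of the endothelial cells with the wild-type and 11.9% (9.79 to 14.3) with the Usb1-null genotype, endocardial-like cells 7.47% and 8.39%, venous-like cells 14.2% and 12.2%, and tip cell-like cells 19.8% and 21.05%. The intervals of all 4 differences included 0, the widest being that of tip cell-like cells, at 1.23 points (−2.60 to 5.06). These differences depended on the clustering. Without centring per library the venous-like difference turned from −1.99 to 4.13 points and the tip cell-like one was 6.96 points, and without doublets the arterial-like difference went from −1.55 to −4.30 points and the tip cell-like one to 0.276 points. Gja4 and Gja5 differed between the libraries, and with all leading genes that differed left out of the clustering the arterial-like shares were 13.6% and 11.6%. Sub-cluster 8 had 17 cells of the wild-type library (1.93%, 1.13 to 3.06) and 43 of the Usb1-null library (5.23%, 3.81 to 6.98), a difference of 3.31 points (1.53 to 5.08). However, Btbd11, one of its leading genes, itself differed between the libraries, and no matching sub-cluster was found once the leading genes that differed were left out, once doublets were removed or with 1000 variable genes.

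**Figure D3:**
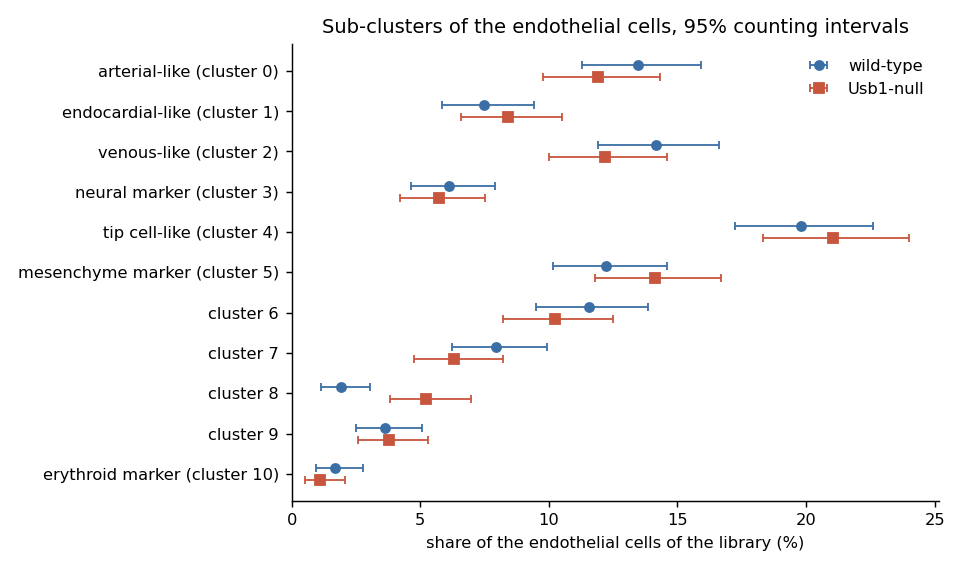
Share of the endothelial cells of each library (percent, horizontal axis) in the 11 sub-clusters, with exact 95% counting intervals, for the wild-type (circles) and Usb1-null (squares) library. The intervals overlap in every sub-cluster but number 8, where 1.93% of wild-type and 5.23% of Usb1-null cells lie.

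The comparison between genotypes asked whether the endothelial cells that form without USB1 differ in expression from wild-type ones. UMIs were summed over the endothelial cells of each library, and a gene was called when its CPM, with 1 CPM added, differed at least 1.5-fold. Of 7210 genes with at least 100 UMIs, 332 (4.6%) were called higher in Usb1-null and 370 (5.13%) lower. The balance of the directions turned with median-of-ratios scaling, to 392 higher and 312 lower, and without doublets, to 370 higher and 309 lower. It also turned with at least 5 rule markers (322 and 272), without the sub-clusters of other cell classes (307 and 286) and at 2-fold (74 and 55). In all other cells the same genes gave 124 (1.72%) higher and 223 (3.09%) lower, over sums many times larger and so with less counting noise. The median log2 ratio of all 7210 genes was −0.01.

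The 12 rule markers are given as a description, since their detection set which cells were members, and none of them was called in either direction. Tek, the receptor for angiopoietins, had 650 and 652 CPM in wild-type and Usb1-null endothelial cells, and Cdh5, the adherens junction protein VE-cadherin, 332 and 332 CPM. Kdr had 533 and 525 CPM and Flt1 had 1432 and 1347 CPM, while Egfl7 had 1444 and 1106 CPM, a ratio of 0.766 (0.724 to 0.811). The median log2 ratio of the 12 was −0.19. It was −0.03 with cells thinned to 500 UMIs, −0.33 without doublets and −0.38 with at least 2 rule markers, where 2 of the 12 were called lower, beside 5.73% of all genes.

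Of the 30 counted endothelial genes outside the rule, 0 were called higher and 4 lower, beside 5.13% of all genes, with a median log2 ratio of −0.15. The number lower depended on the processing. It was 7 of 29 without doublets, beside 5.08% of all genes, and 8 of 30 with the mean of the CPM of single cells, beside 5.84%. With at least 2 rule markers it was 8 of 31, beside 5.73%. The lowest was Icam2, an adhesion molecule of endothelial junctions, with 299 UMIs (200 CPM) in the wild-type and 240 UMIs (96.2 CPM) in the Usb1-null library, a ratio of 0.481 (0.404 to 0.572). Ramp2, the co-receptor for adrenomedullin, followed with 249 and 128 CPM (ratio 0.516, 0.443 to 0.600). Plvap, which forms the diaphragms of endothelial openings, had 263 and 152 CPM (0.578, 0.501 to 0.667) and Clec14a, a surface lectin, 58.2 and 36.9 CPM (0.634, 0.468 to 0.860). Within the arterial-like, endocardial-like, venous-like and tip cell-like cells taken alone, Icam2, Ramp2 and Plvap each had a lower CPM in the Usb1-null than in the wild-type library. In venous-like cells, for example, Icam2 had 190 and 83.7 CPM, although in arterial-like cells its ratio of 0.802 had an interval from 0.531 to 1.22. Clec14a was lower in 3 of these groups and had 2 and 9 UMIs in endocardial-like cells. Icam2, Ramp2 and Plvap stayed past 1.5-fold under all 13 alternatives run, and Clec14a under 9 of them.

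Short genes were called lower more often than longer ones. Of 877 counted genes of up to 10 kb, 171 (19.5%) were called lower, with a median log2 ratio of −0.22 in endothelial cells and −0.26 in other cells, whereas 133 of 3314 genes (4.01%) of 10 to 50 kb were. Clec14a spans 4.57 kb, and Icam2, Ramp2 and Plvap span 10.4, 13.5 and 14.0 kb. Ribosomal protein genes took 2.45% of endothelial UMIs in the wild-type and 1.78% in the Usb1-null library, mitochondrial genes 0.483% and 0.198%, and Gm42418 and AY036118, which overlap ribosomal RNA repeats, 0.374% and 1.56%. Other cells differed alike (2.65% and 1.89% for ribosomal protein genes). The part of gene length and of these shares in the 4 lower genes was not tested.

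Of 13 counted arterial genes, 0 were called higher and 2 lower, both connexins, beside 4.6% and 5.13% of all genes. Gja4 had 75 and 67 UMIs (50.1 and 26.9 CPM, ratio 0.536, 0.379 to 0.755) and Gja5 had 88 and 92 UMIs (58.8 and 36.9 CPM, 0.627, 0.463 to 0.849). Within arterial-like cells alone, Gja4 had 278 and 143 CPM and Gja5 453 and 278 CPM. With cells thinned to 500 UMIs the log2 ratio of Gja4 turned to 0.17, and it was also no longer past 1.5-fold with cells chosen after such thinning. Gja5 was no longer past 1.5-fold under 4 of 13 alternatives, which were 4 and 5 rule markers, 10 CPM added and wild-type sub-cluster shares. Hey2, an arterial target of Notch, had 28 and 19 UMIs and was too low to be called. Of the 13 counted genes, 5 had a log2 ratio above 0. Summed over the 17 listed arterial genes the ratio was 0.885 (0.852 to 0.920), and within arterial-like cells 0.821 (0.766 to 0.880). The arterial ligand genes had 336 and 325 CPM for Efnb2, which encodes ephrin B2, and 51.5 and 68.9 CPM for Dll4, the Notch ligand of arteries and tip cells (ratio 1.34, 1.02 to 1.78).

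Of the 10 counted Notch genes, 2 were called higher and 0 lower, beside 4.6% and 5.13% of all genes. Hes1, a direct Notch target, had 42.1 and 72.1 CPM (1.71, 1.28 to 2.32) and Mfng, the glycosyltransferase manic fringe, 24.1 and 41.7 CPM (1.73, 1.18 to 2.61). Hes1 was also higher in other cells (1.39, 1.30 to 1.496), whereas Mfng was not (0.902, 0.748 to 1.09). With at least 2 rule markers Mfng was no longer past 1.5-fold, and the list then had 1 gene called higher and 1 lower, beside 4.98% and 5.73% of all genes. The receptor genes Notch1 (168 and 187 CPM) and Notch4 (49.5 and 34.5 CPM) were not called.

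Venous genes (7 counted) gave no call, beside 4.6% of all genes higher and 5.13% lower, with 188 and 165 CPM for the ephrin receptor gene Ephb4 and 233 and 242 CPM for Nr2f2, the venous nuclear receptor. Stab2, a scavenger receptor of venous and sinusoidal endothelium, lay just under the mark with 30.7 and 46.1 CPM (log2 ratio 0.57), and it was past 1.5-fold under 6 of 13 alternatives. Thinned to 500 UMIs, 2 of 6 counted venous genes were called lower, beside 7.30% of all genes, and with at least 2 rule markers 1 of 7 was, beside 5.73%. Of 9 counted endocardial genes, Bmp6 alone was called, as lower, with 63.5 and 39.7 CPM, beside 5.13% of all genes, and it stayed past 1.5-fold under 8 of 13 alternatives. Nfatc1, the endocardial transcription factor of valve formation, had 84.9 and 90.6 CPM, and Hapln1, a hyaluronan link protein, 1262 and 1304 CPM. Bmper, a secreted BMP modulator, was the other BMP pathway gene called among 14 counted, with 26.7 and 47.7 CPM. No sub-cluster held more of its UMIs than the endocardial-like cells, with 15 of 40 in the wild-type and 68 of 119 in the Usb1-null library, and its log2 ratio turned to −0.21 with cells thinned to 500 UMIs.

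Of 9 counted tip cell genes, Kcne3 and Mcam were called higher and 0 lower, beside 4.6% and 5.13% of all genes. The list as a whole did not share their direction, with 4 of 9 genes above 0 on the log2 scale, a median of −0.03 and a ratio of the summed list of 0.878 (0.840 to 0.918). Kcne3, a potassium channel subunit, had 16 and 85 UMIs (10.7 and 34.1 CPM, ratio 3.19, 1.85 to 5.82). Mcam, the adhesion molecule CD146, had 58.8 and 113 CPM (1.91, 1.502 to 2.46), and 68.3 and 214 CPM within tip cell-like cells. Among 5 counted genes of the VEGF pathway besides the rule markers Kdr and Flt1, the ligand gene Vegfa was called higher, beside 4.6% of all genes, with 31.4 and 63.7 CPM (2.03, 1.46 to 2.87). In all other cells 2 of the 7 counted genes of this list were called higher, beside 1.72% of all genes there. The receptor and co-receptor genes Flt4 (247 and 283 CPM), Nrp1 (864 and 717 CPM) and Nrp2 (461 and 415 CPM) were not.

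Of 14 counted basement membrane genes 0 passed 1.5-fold in either direction, beside 4.6% of all genes higher and 5.13% lower, and 11 were below 0 on the log2 scale, with a median of −0.25 in endothelial and −0.11 in other cells. The collagen IV genes Col4a1 (785 and 648 CPM) and Col4a2 (514 and 367 CPM) and the collagen XVIII gene Col18a1 (764 and 581 CPM) were among them. With at least 2 rule markers 4 of 15 counted basement membrane genes were called lower, beside 5.73% of all genes. It was 1 of 14 without doublets, beside 5.08%, 1 of 14 with the mean of the CPM of single cells, beside 5.84%, and 1 of 10 with thinned counts, beside 7.30%. Of 7 counted junction genes that the rule did not use, Icam2 alone was called, and the tight junction gene Tjp1 (436 and 452 CPM) was not. Of 6 counted flow-response genes 1 was above 0 on the log2 scale, with a median of −0.33 in endothelial and −0.12 in other cells and a ratio of the summed list of 0.869 (0.808 to 0.934). Edn1, which encodes the vasoconstrictor endothelin 1, was called lower (39.4 and 25.2 CPM), beside 5.13% of all genes, and was no longer past 1.5-fold with 10 CPM added or with cells chosen after thinning. The gene above 0 was Nos3, the endothelial nitric oxide synthase, with 80.2 and 101 CPM.

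**Figure D4:**
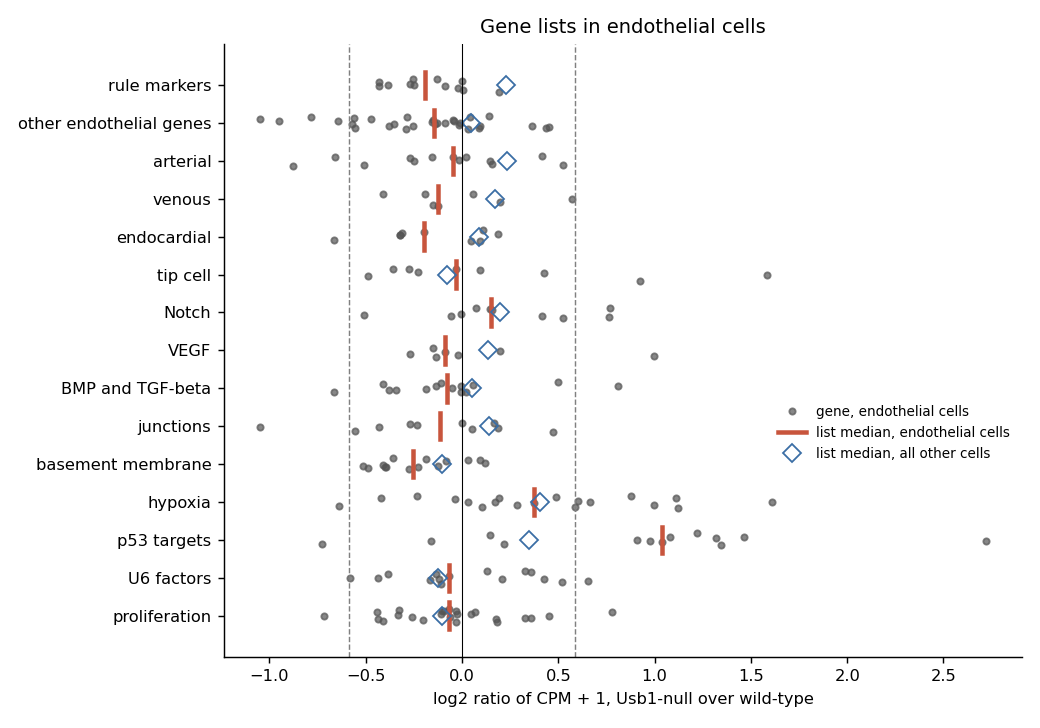
Log2 ratio of CPM + 1, Usb1-null over wild-type, for each counted gene (grey points) of 15 lists in endothelial cells, with the list median in endothelial cells (vertical bars) and in all other cells (open diamonds); dashed lines mark 1.5-fold. Of the lists drawn, the p53 targets have the highest median, 1.04 in endothelial against 0.35 in other cells, and the hypoxia genes follow at 0.37 against 0.41.

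The list with the most members called was that of p53 target genes, the genes that the transcription factor p53 switches on after DNA damage or other stress. Of 13 counted, 9 were called higher, beside 4.6% of all genes, and 1 lower, with a median log2 ratio of 1.04 in endothelial cells and 0.35 in all other cells, where 3 of the 13 were called higher, beside 1.72% of all genes there. Summed over the 24 genes of the list, the level was 679 CPM in wild-type and 1247 CPM in mutant endothelial cells, a ratio of 1.84 (1.71 to 1.97). The higher level of this list in the whole embryo was known when the list was chosen, so its direction here is not independent evidence.

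Genes of the p53 feedback loop and of cell cycle arrest were among those higher. Mdm2, the ubiquitin ligase that removes p53, had 121 UMIs (80.9 CPM) in the wild-type and 473 UMIs (190 CPM) in the Usb1-null library, a ratio of 2.34 (1.92 to 2.89). In other cells its ratio was 1.28 (1.197 to 1.36), and the log2 difference between endothelial and other cells was 0.88 (0.58 to 1.18). Cdkn1a, the p21 inhibitor of cyclin-dependent kinases, had 6 and 65 UMIs, under the minimum for a call, with a ratio of 6.50 (2.83 to 18.3) against 1.56 (1.17 to 2.103) in other cells. Ccng1, cyclin G1, had 18.05 and 46.5 CPM (2.58, 1.68 to 4.07), and Zmat3, an RNA-binding target of p53, 22.7 and 59.3 CPM (2.61, 1.79 to 3.91). Plk2, a polo-like kinase gene enriched in endothelial cells, had 66.2 and 125 CPM (1.89, 1.503 to 2.39) against a ratio of 1.09 (0.888 to 1.34) in other cells. Cdkn1a was among the p53 targets chosen for mention after their values were seen.

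The death receptor gene Eda2r, on the X chromosome, was the highest of the list, with 17 and 201 UMIs (11.4 and 80.6 CPM, ratio 7.09, 4.32 to 12.4). The exonuclease gene Aen had 60.2 and 119 CPM and the DNA polymerase gene Polk 68.8 and 147 CPM. Psrc1 had 17.4 and 49.7 CPM (2.86, 1.86 to 4.55), against a ratio of 1.14 (1.06 to 1.24) in other cells. The pro-apoptotic gene Bax differed the other way, with 74.2 and 44.5 CPM (0.600, 0.457 to 0.787), and was lower in other cells as well (0.716). Sesn1, Ei24 and Rps27l were counted and not called. Psrc1, Plk2 and Ccng1 span 4.39, 5.80 and 6.76 kb and so were higher in a length class in which 4.56% of genes were. The ratios of all 9 genes stayed past 1.5-fold under all 13 alternatives run, whether or not a gene still reached 100 UMIs there. Among genes that did, 8 of 12 were called higher without doublets, beside 6.09% of all genes. It was 7 of 11 without the sub-clusters of other cell classes, beside 5.47%, and 6 of 9 with cells chosen after thinning, beside 4.48%. The list median ranged from 0.88 to 1.29 under 12 of the alternatives (0.98 without doublets). The exception was thinning to 500 UMIs, in which no member reached 100 UMIs.

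The difference was present across the vessel subtypes. The summed level of the list was higher in Usb1-null cells in all 11 sub-clusters, and the interval of the ratio was above 1 in 9 of them. In tip cell-like cells it was 625 CPM in the wild-type and 1646 CPM in the Usb1-null library (ratio 2.63, 2.23 to 3.12), in arterial-like cells 627 and 1301 CPM (2.08, 1.67 to 2.60), in venous-like cells 748 and 1467 CPM (1.961, 1.61 to 2.40) and in endocardial-like cells 696 and 1307 CPM (1.88, 1.42 to 2.51). The intervals of these 4 ratios overlapped. In the neural marker and mesenchyme marker sub-clusters the ratios were 1.38 (1.09 to 1.75) and 1.53 (1.30 to 1.81). Mdm2 had 53.9 and 262 CPM in tip cell-like cells and 108 and 222 CPM in venous-like cells.

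**Figure D5:**
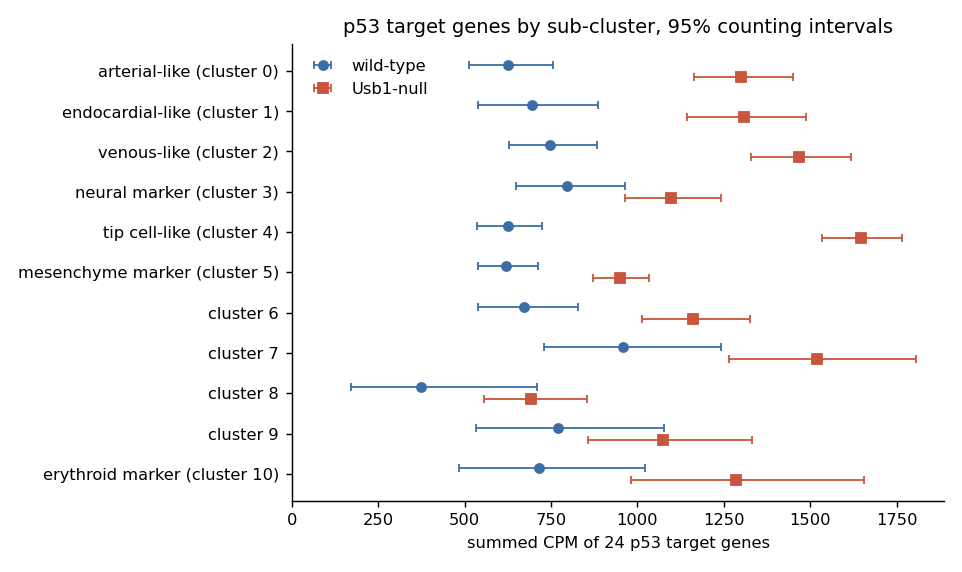
Summed CPM of the 24 p53 target genes (horizontal axis) in each sub-cluster of endothelial cells, with exact 95% Poisson intervals for the wild-type (circles) and Usb1-null (squares) library. The Usb1-null value is the higher in all 11 sub-clusters and reaches 1646 CPM in tip cell-like cells, against 625 CPM in the wild-type library.

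Hypoxia genes followed, with a median close to that elsewhere in the embryo. Of 19 counted, 8 were called higher and 1 lower, beside 4.6% and 5.13% of all genes, and in other cells 5 were called higher and 1 lower, beside 1.72% and 3.09%. The median log2 ratio was 0.37 in endothelial and 0.41 in other cells. Bnip3, a mitophagy receptor, had 22 and 117 UMIs (14.7 and 46.9 CPM, ratio 3.19, 2.01 to 5.28). The glycolytic enzyme genes Hk2 (99.6 and 218 CPM) and Pfkfb3 (32.1 and 70.5 CPM) were both higher, whereas Gapdh (191 and 122 CPM) was lower, a call lost without doublets, and Slc2a1, which encodes the glucose transporter GLUT1, had 501 and 426 CPM. Without doublets the list median was 0.17, with 6 genes called higher of 17 counted, beside 6.09% of all genes. Without the 3 sub-clusters that had markers of other cell classes raised the median was 0.20.

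Of 24 counted proliferation genes, 1 was called higher (Mcm4) and 1 lower (Ccnb2), beside 4.6% and 5.13% of all genes, with a median log2 ratio of −0.07. Ccnb2 was no longer past 1.5-fold with 10 CPM added. Mki67 had 255 and 350 CPM and Top2a 495 and 414 CPM. Of 15 counted genes of proteins and enzymes that act on U6, Prpf8 alone was called, with 68.2 and 108 CPM, beside 4.6% of all genes, and it was no longer past 1.5-fold with at least 2 rule markers. Usb1 itself had 9 and 6 UMIs in endothelial cells, and the deletion lies at the 5′ end of the gene, away from where the 3′ reads fall, so this count does not check the genotype. Tut1, which adds uridines to U6, had 38 and 86 UMIs (ratio 1.36, 0.916 to 2.04).

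The extreme genes of the whole comparison were largely not endothelial. Of the 10 highest, Uty, Eif2s3y, Ddx3y and Kdm5d are Y-linked, with 0 UMIs in wild-type and 152 to 801 in Usb1-null endothelial cells. Of the 10 lowest, Xist and Tsix are X-linked, with 3055 and 171 UMIs in wild-type and 2 and 2 in Usb1-null cells, and Hbb-y, Hba-a1 and Hba-x are embryonic or adult haemoglobins. The sex of the embryos and their genotype therefore cannot be told apart. Ano3, which encodes a member of the anoctamin membrane proteins, stood out among the others, with 17 and 240 UMIs (11.4 and 96.2 CPM, ratio 8.46, 5.18 to 14.8). In all other cells its ratio was 1.58 (1.42 to 1.76). Its Usb1-null UMIs lay in tip cell-like (85), venous-like (50), mesenchyme marker (34), arterial-like (27), neural marker (18) and endocardial-like cells (17), while tip cell-like cells of the wild-type library held 0. The others of the 10 highest were AC160336.1, Eda2r, AY036118, Gm42418 and Tex14.

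Genes whose ratio was far above that in other cells included Ano3, Psrc1, Ptprt and Kcne3. Ptprt, a receptor tyrosine phosphatase gene, had 23 and 115 UMIs in endothelial cells (ratio 2.998, 1.90 to 4.92) and a ratio of 0.959 (0.870 to 1.06) in other cells, and 55 of the 115 were in tip cell-like cells. Far below it were Casp8, She, Ecm1, Ushbp1 and Fam13c. Casp8, an initiator of programmed cell death, was itself higher in Usb1-null endothelial cells, with 38.1 and 66.1 CPM (ratio 1.74), but less so than in other cells, where the ratio was 3.98 (3.61 to 4.38). It was no longer past 1.5-fold under 2 of 13 alternatives. Ecm1, a secreted matrix protein, had 75.5 and 21.6 CPM (ratio 0.287, 0.203 to 0.3996), and Ushbp1 had 74.9 and 32.1 CPM (0.428, 0.317 to 0.576) against a ratio of 1.05 (0.610 to 1.86) in other cells. She, an adaptor protein gene of endothelium, had 76.9 and 82.2 CPM and differed from other cells only because its ratio there was 3.76 (2.60 to 5.58).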

How the data were processed

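Single-cell RNA was measured with 10x 3′ v3.1 chemistry in 1 wild-type and 1 Usb1-null library of dissociated E9.5 embryos. The authors deposited a matrix of raw UMI counts for each library, the output of Cell Ranger (6.1.2 in the file headers, 2.1.1 with mm10 in the submitters' processing notes). One label field names nuclear RNA, whereas the protocol describes a cell suspension. Cells with 200 to 6000 detected genes were kept. The members and gene lists were chosen with earlier results of these data known.

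Counts were summed over the endothelial cells of each library, scaled to CPM and compared as a log2 ratio with 1 CPM added, for genes reaching 100 UMIs summed over the libraries. A difference of 1.5-fold was called. Ratio intervals were exact conditional binomial, shares Clopper-Pearson and levels Poisson (SciPy 1.17.1), all at 95% and for counting error only. Depth limited precision to genes of about 100 UMIs. The fold change script was tested on simulated data. Sub-clusters came from Scanpy 1.11.5 (log-normalised counts, centring per library, 2000 variable genes, 20 principal components, 15 neighbours, Leiden resolution 0.8, seed 0), without globin, ribosomal, mitochondrial and sex-linked genes. A sub-cluster was named from at least 3 raised markers (2-fold, 10 UMIs). Doublets were called with Scrublet (expected rate 10%) and kept, with their removal as an alternative. Gene spans came from GENCODE M21 and promoters from RefSeq (GRCm38.p6). Alternatives were other marker thresholds, removal of doublets, thinning of every cell to 500 UMIs, other scalings, other amounts of added CPM, other UMI minimums and other clustering settings. Whether a single gene stayed past 1.5-fold under an alternative was read from its ratio, also where it no longer reached 100 UMIs. A gene's 3′ counts were compared between libraries and not with other genes.

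Genes were named by rule: the 12 rule markers, the 10 highest and 10 lowest ratios, the 5 highest and 5 lowest differences from other cells, the 15 most enriched genes, and of each list the 3 with the most UMIs and the 2 with the largest ratio. Other genes in the text were chosen after their values were seen, and some genes that met the rule are not reported here.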

Additional observations from a re-analysis of the deposited data

Results flagged for a closer look

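Among 240 counted genes of the lists or of the naming rule, 15 had ratios (Usb1-null over wild-type) whose counting intervals lay on opposite sides of 1 in endothelial cells and in all other cells. With 1 library per genotype the difference between the 2 cell groups has no replicate test. Of the 15, 13 were lower in Usb1-null endothelial cells and higher in the other cells.

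Pecam1, the adhesion molecule CD31, had a ratio of 0.828 in endothelial and 1.47 in other cells, and Adgrf5 had 0.840 and 1.52. Both are rule markers, whose detection divided endothelial from other cells, so their values are a description of that division. Of endothelial genes that the rule did not use, ratios on opposite sides of 1 were seen for Aplnr, the apelin receptor gene (0.751 and 1.53), the transcription factor gene Ets1 (0.896 and 1.37), Calcrl, the adrenomedullin receptor gene (0.906 and 1.23), Cyyr1 (0.756 and 1.21) and 4930542D17Rik (0.783 and 2.84). Beside these values stands the number of cells with 2 rule markers, which count among the other cells and numbered 177 in the wild-type and 349 in the Usb1-null library. Their part in the ratios of the other cells was not tested.

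Genes of the endocardium and heart were Tbx20 (0.797 and 1.21), Gata4 (0.797 and 1.08) and Npr3, the natriuretic peptide clearance receptor gene (0.806 and 1.17). Fn1, fibronectin, had 0.879 and 1.04, Lef1, a Wnt pathway factor, 0.823 and 1.07, and Fam13c 0.446 and 1.29.

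The remaining 2 were higher in Usb1-null endothelial cells and lower elsewhere. Tal1 had ratios of 1.29 and 0.721 and the mesenchyme factor gene Prrx1 1.53 and 0.792. Of the UMIs of Prrx1 in endothelial cells, 29 of the wild-type and 86 of the Usb1-null library lay in the mesenchyme marker sub-cluster, in which 67.4% of cells were called doublets. Without doublets the log2 ratio of Prrx1 went from 0.60 to 1.13, and it was past 1.5-fold under 4 of 13 alternatives.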

How the results depend on the processing

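The share of endothelial cells in the wild-type and Usb1-null library was 6.94% and 8.85% with at least 2 rule markers (ratio 1.28), 5.28% and 5.77% with 4, 4.55% and 5.53% with 5 (ratio 1.22), 5.09% and 5.71% without doublets, and 3.85% and 3.64% with cells thinned to 500 UMIs (ratio 0.945). Among cells with at least 1000 genes the wild-type share was 7.12% (ratio 0.924), and with thinning to 1000 UMIs the Usb1-null share was 5.49% (ratio 0.986). Genes called higher and lower numbered 70 and 97 with thinned counts, 201 and 211 with 10 CPM added, 221 and 246 with cells chosen after thinning, 604 and 642 with a minimum of 50 UMIs, 147 and 164 with 200 UMIs, and 74 and 55 at 2-fold. The cause was not tested beyond the fewer or more genes that these minimums and counts admit. With thinned counts Gja4 turned to 0.17 and Bmper to −0.21 on the log2 scale, both on fewer UMIs than in the main counts and so imprecise. Only 1 sex-linked gene was left, at −10.95.

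Without centring per library the Usb1-null share of venous-like cells was 4.13 points higher, the reverse of the −1.99 points with centring, and that of tip cell-like cells 6.96 points higher, and that of sub-cluster 7 was −5.07 points apart. Without doublets sub-cluster 7 stood at −4.33 and the erythroid marker sub-cluster at 0.846 points, and at resolution 1.2 sub-cluster 9 stood at −2.04. Choosing cells after thinning, 5 rule markers, thinning to 1000 UMIs and leaving out leading genes that differed were alternatives added after seeing the data. No paired analysis was possible because each genotype had 1 library.

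With 1 library per genotype, embryo, sex, depth and library preparation cannot be told apart from genotype, and no interval covers them. Ratios of genes under 100 UMIs are imprecise.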

Other observations

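Lists that gave few counted genes still had values in endothelial cells. Of 12 haemogenic genes 3 were counted and 0 called, with 57.5 and 44.1 CPM for Runx1 (ratio 0.767, 0.573 to 1.03) and 102 and 126 CPM for Kit, the stem cell factor receptor gene, in wild-type and Usb1-null cells. Of 6 lymphatic genes 2 were counted, with 321 and 293 CPM for Vegfc, a growth factor of lymphatic vessels, while Prox1, the lymphatic master regulator, had 24.1 and 25.2 CPM. Of 15 genes of brain vessels 7 were counted and 1 called, Slc16a1, a monocarboxylate transporter gene, with 74.9 and 119 CPM, beside 4.6% of all genes called higher. Slc16a1 was no longer past 1.5-fold with cells chosen after thinning. Of the 6 counted genes of the angiopoietin and Tie list, 3 are rule markers (Tek, Tie1 and Ptprb), and the other 3, Angpt1, Angpt2 and Foxo1, were not called. Of the cushion genes 4 were counted, and Has2, the hyaluronan synthase of the cardiac cushions, was called with 28.7 and 50.5 CPM, beside the same 4.6%. Has2 was no longer past 1.5-fold with thinned counts or without the sub-clusters of other cell classes, with a lowest log2 ratio of 0.29, and 15 of its 43 wild-type and 59 of its 126 Usb1-null UMIs lay in the mesenchyme marker sub-cluster.

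Within endocardial-like cells, Ecm1 had 306 CPM in the wild-type and 90.1 CPM in the Usb1-null library, on 29 and 16 UMIs, and Bmper had 158 and 383 CPM.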
